A study of Mus musculus with 21 samples.

Results

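Naive pluripotency transcription factors are the DNA-binding and chromatin-associated proteins that keep mouse embryonic stem cells (mESCs) in the state of the preimplantation epiblast. The 10 described here, Nanog, Klf2, Klf4, Klf5, Esrrb, Tfcp2l1, Tbx3, Zfp42, Prdm14 and Nr0b1, were taken by gene symbol from the counts of every library. They are 10 of 23412 gene symbols, and all 10 were among the 14963 genes with enough counts to be tested. RNA-seq was measured in v6.5 mESCs grown on gelatin, with 3 libraries for each of 7 conditions and 21 in all. Wildtype (WT) cells received siGLO, a control siRNA, or siPds5b. A Pds5a knockout (Pds5a-KO) received siGLO, siPds5b, siStag1 or siStag2, and a Pds5b knockout (Pds5b-KO) received siGLO. Every condition, the controls included, was transfected with 50 nM siRNA and harvested after 48 h. PDS5A and PDS5B are alternative accessory subunits of cohesin, the ring complex that forms DNA loops, and STAG1 and STAG2 are another such pair. Each knockout was 1 CRISPR clone, so an effect of the clone and an effect of the lost gene cannot be told apart. The labels do not say whether replicates were separate cultures. The study calls them biological replicates and drew those of a genotype from a single clone, and the p-values measure the spread between these libraries.

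Naive mESCs are held by a set of factors that bind the enhancers of one another's genes, so that each factor helps to maintain the rest. Leukemia inhibitory factor, acting through STAT3, feeds the network mainly at Klf4 and Tfcp2l1, and relief of repression by TCF7L1 feeds it at Esrrb, Klf2 and Nanog. When mESCs leave this state, the naive factors are switched off, the general pluripotency factors Pou5f1 and Sox2 are kept for a time, and formative and primed genes such as Dnmt3b, Pou3f1 and Fgf5 come on.

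The factors can be told apart by what controls them and by what they do, and the RefSeq promoters of 4 are shown because they differ in the motifs they hold. A window of 250 bases before the start was found for 7 of the 10 genes. No window was matched for Klf5, Tbx3 or Prdm14. Motifs were searched on both strands as exact letters, so near matches were not counted, and matches are in capitals. Windows of 1 chromosome that holds none of the 10 genes were left out, and all shares are of the windows searched. The OCT-SOX composite, to which OCT4 and SOX2 bind side by side, was found in 2 of 32851 promoter windows, both of them windows of Nanog at overlapping positions. The octamer letters ATGCAAA, which also form the end of the composite, were in 4.12% of all windows and among these genes in Nanog and Zfp42. The STAT palindrome TTCNNNGAA was in 7.02% of all windows and in 1 window of Esrrb. The GC box GGGCGG was in 32.7% of all windows and in Klf2, Klf4 and Zfp42, the CACCC box CCACACCC was in 3.2% of all windows and in Zfp42, where it overlaps a GC box, and the estrogen-related receptor element TCAAGGTCA was in 0.387% of all windows and in none of these genes. Coordinates are those of GRCm38.p6, and each sequence is written in the direction of its gene.
Nanog, chr6:122707239-122707488, plus strand, OCT-SOX composite: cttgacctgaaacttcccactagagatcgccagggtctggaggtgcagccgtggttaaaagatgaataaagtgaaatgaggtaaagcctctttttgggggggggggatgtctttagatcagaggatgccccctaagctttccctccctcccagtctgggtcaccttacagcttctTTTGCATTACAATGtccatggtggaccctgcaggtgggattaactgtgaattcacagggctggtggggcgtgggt
Zfp42, chr8:43307010-43307259, minus strand, octamer letters, GC boxes and CACCC box: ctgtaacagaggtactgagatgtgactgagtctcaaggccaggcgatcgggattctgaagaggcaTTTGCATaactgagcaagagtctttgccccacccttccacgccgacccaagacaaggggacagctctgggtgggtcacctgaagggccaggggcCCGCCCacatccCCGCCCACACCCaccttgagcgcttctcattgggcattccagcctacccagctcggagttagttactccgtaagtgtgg
Esrrb, chr12:86360867-86361116, plus strand, STAT palindrome: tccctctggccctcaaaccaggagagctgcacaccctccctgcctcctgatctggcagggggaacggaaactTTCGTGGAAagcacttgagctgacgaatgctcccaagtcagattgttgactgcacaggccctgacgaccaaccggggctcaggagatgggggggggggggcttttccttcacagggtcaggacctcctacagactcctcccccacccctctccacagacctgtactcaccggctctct
Klf4, chr4:55532476-55532725, minus strand, GC boxes: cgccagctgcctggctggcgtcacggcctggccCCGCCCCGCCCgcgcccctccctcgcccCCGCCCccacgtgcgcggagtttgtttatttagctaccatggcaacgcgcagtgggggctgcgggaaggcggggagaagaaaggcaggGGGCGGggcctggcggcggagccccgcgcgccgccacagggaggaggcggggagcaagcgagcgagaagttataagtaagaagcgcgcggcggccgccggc
The composite of Nanog begins 75 bases before the start, and the octamer letters of Zfp42 begin 185 bases before it. The palindrome of Esrrb begins 178 bases before the first of its starts, and the window of its other start held none of the motifs. A match is a description of these letters and not evidence of binding.

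In the GENCODE annotation of GRCm38, the genes lie as follows. Nanog at chr6:122707489-122714633 (plus strand), Klf2 at chr8:72319033-72321656 (plus strand) and Klf4 at chr4:55527143-55532466 (minus strand) come first. They are followed by Klf5 at chr14:99298691-99315036 (plus strand), Esrrb at chr12:86361117-86521628 (plus strand) and Tfcp2l1 at chr1:118627945-118685168 (plus strand). The others are Tbx3 at chr5:119670669-119684724 (plus strand), Zfp42 at chr8:43295063-43306980 (minus strand), Prdm14 at chr1:13113457-13127163 (minus strand) and Nr0b1 at chrX:86191764-86195947 (plus strand).

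Total counts per library lay between 17311090 and 23989198. The raw counts of the 10 genes ranged from 70 for Prdm14 to 13224 for Nanog, so that each gene was measured in every library. The siRNAs lowered the transcripts of their targets. Pds5b had a mean of 2219 normalized counts (counts scaled to a common library size) in WT siGLO, 776.2 in WT siPds5b, 903.3 in Pds5a-KO siPds5b and 275.8 in Pds5b-KO siGLO. Stag1 went from 2428 in Pds5a-KO siGLO to 574.5 with siStag1, and Stag2 from 3256 to 875.2 with siStag2. Pds5a transcript was not called lower in Pds5a-KO siGLO (4271 against 5059 in WT siGLO, log2 fold change -0.24), so its counts do not check that label. Markers of mESCs were high in every library, with 15901 to 31322 normalized counts of Pou5f1. Libraries numbered replicate 1 stood apart in the summed level of 6 primitive endoderm markers, which was highest in replicate 1 in 6 of the 7 conditions (1406 against 824.6 and 839.3 in WT siGLO), and their part in the results was not tested beyond repeating each comparison without these 7 libraries.

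The levels of the 10 factors in WT siGLO spanned a wide range when set per kilobase of exon. The length used was that of all annotated exons of a gene merged. It can exceed the length of the transcript expressed, so the order is approximate. Zfp42, better known as Rex1 and a classic marker of the naive state, had 5142 ± 576 normalized counts per kb (SD, n = 3 here and below), and Nanog had 4662 ± 227, and the libraries of these 2 genes overlapped. Esrrb followed with 1901 ± 87.8 per kb. Nr0b1 (1146 ± 129) and Klf4 (1111 ± 33.5) overlapped with each other, as did Tbx3 (334.3 ± 22.0) and Klf5 (332.4 ± 35.6), with Klf2 at 857.9 ± 32.4 and Tfcp2l1 at 758.7 ± 68.9 between these pairs. Prdm14 was the lowest, with 230.9 ± 16.5 per kb. In Pds5a-KO siPds5b cells Zfp42 and Nanog were still the highest, at 1839 ± 97.8 and 1444 ± 246 per kb, and Prdm14 was still the lowest, at 30.0 ± 5.02. The middle of the order was different there. Klf2 (446.2 ± 111) came next and overlapped with Esrrb (392.9 ± 16.7), and Tfcp2l1 (156.1 ± 29.8) stood below Klf5 (173.9 ± 20.3), again with overlapping libraries.

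**Figure D1:**
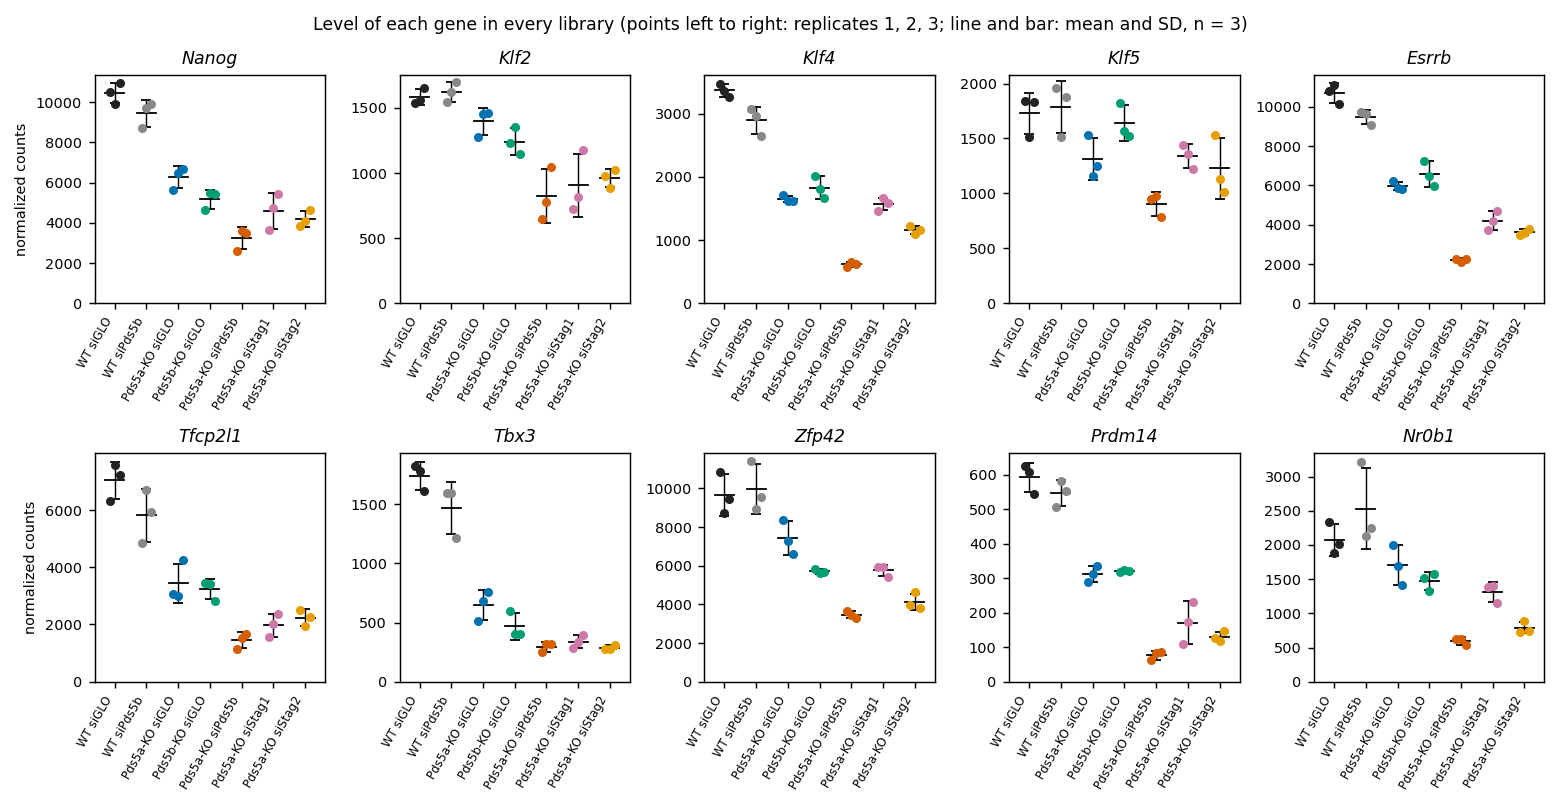
Normalized counts (y axis, from 0) of each of the 10 genes in each of the 7 conditions (x axis), with 1 point per library in the order replicate 1, 2, 3, a line for the mean and a bar for the SD (n = 3). The lowest mean of every gene but Tbx3 was in Pds5a-KO siPds5b, for example 615.6 for Klf4 against 3366 in WT siGLO (Tbx3 had 294.9 there and 287.8 in Pds5a-KO siStag2), while the means in WT siPds5b stayed between 82.7% and 122% of those in WT siGLO.

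To ask whether reducing Pds5b alone changed these factors, WT siPds5b was compared with WT siGLO. None of the 10 was called at an adjusted p under 0.01 in edgeR's quasi-likelihood test (0 by DESeq2 as well), and 2 of the 10 had an unadjusted p under 0.05, as did 4.22% of all genes. Of all genes tested, 0.00668% were called lower in this comparison, which is 1 gene, Pds5b itself. Klf4, a LIF-responsive zinc finger factor, had 3065, 2959 and 2649 normalized counts with siPds5b against 3472, 3358 and 3269 with siGLO. The libraries of Klf4 did not overlap, yet the log2 fold change was only -0.22 (standard error 0.08, edgeR adjusted p = 1.0). Esrrb and Tbx3 also had all 3 libraries below those of WT siGLO, with log2 fold changes of -0.17 and -0.24, and 5.71% of all genes had all 3 libraries below in this comparison. The median over the 10 factors was -0.13, against 0.0 over all genes tested, and the single values lay between -0.27 for Tfcp2l1 and 0.29 for Nr0b1. Taking the replicate number as a block left the count at 0.

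Most of these factors were lower in each knockout clone than in WT cells. In Pds5a-KO siGLO 7 of the 10 were called lower than in WT siGLO, where 8.12% of all genes were, and in Pds5b-KO siGLO again 7 of the 10, where 8.57% of all genes were. In Pds5a-KO 8 of the 10 had all 3 libraries below WT siGLO (20.4% of all genes), and in Pds5b-KO 9 (22.5%). The called genes were Nanog, Klf4, Esrrb, Tfcp2l1, Tbx3, Zfp42 and Prdm14 in both knockouts. Klf2, Klf5 and Nr0b1 were called in neither. The median log2 fold change over the 10 was -0.79 in Pds5a-KO and -0.82 in Pds5b-KO, against 0.0 over all genes in both. The comparisons share the WT siGLO libraries. In bulk RNA, fewer cells in the naive state and less RNA of these genes per cell cannot be told apart.

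Nanog, the homeodomain factor that guards against exit from the naive state, had 10501, 9922 and 10935 normalized counts in WT siGLO. It had 5658, 6471 and 6691 in Pds5a-KO siGLO and 4632, 5468 and 5417 in Pds5b-KO siGLO. All knockout libraries lay below all WT siGLO libraries, with means of 60% and 49.5% of the WT siGLO mean (log2 fold changes -0.74 and -1.01, standard error 0.13 each, edgeR adjusted p = 0.000206 and 6.71e-06).

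The 3 Kruppel-like factors, which share a zinc finger DNA-binding domain and can replace one another in part in keeping mESCs naive, did not move alike. Klf4 fell from 3472, 3358 and 3269 to 1707, 1626 and 1622 in Pds5a-KO siGLO and to 2019, 1804 and 1669 in Pds5b-KO siGLO. No library overlapped, and the log2 fold changes were -1.03 (standard error 0.08, edgeR adjusted p = 1.13e-09) and -0.88 (standard error 0.08, edgeR adjusted p = 1.09e-08). Klf2 had 1538, 1564 and 1652 normalized counts in WT siGLO, 1277, 1453 and 1459 in Pds5a-KO and 1227, 1352 and 1143 in Pds5b-KO siGLO. Its knockout libraries were all below WT siGLO, but neither difference was called (log2 fold changes -0.18 and -0.35, standard error 0.15 each, edgeR adjusted p = 0.402 and 0.0807), although in Pds5b-KO it was in an edgeR fit of only the groups compared (adjusted p = 0.00417). Klf5 had 1839.8, 1515 and 1831 in WT siGLO, 1528, 1159.7 and 1247 in Pds5a-KO and 1825, 1571 and 1521 in Pds5b-KO siGLO. These libraries overlapped, and the log2 fold changes of -0.40 and -0.08 (standard error 0.14 each) were not called (edgeR adjusted p = 0.0393 and 0.705). Without the replicate 1 libraries Klf5 was called in Pds5a-KO (-0.48, edgeR adjusted p = 0.00346).

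Of the nuclear receptors, Esrrb was called in both knockouts, while Nr0b1 was near the threshold in Pds5b-KO. Esrrb, an orphan receptor that binds estrogen-related response elements and can sustain self-renewal when overexpressed, had 10816, 11120.5 and 10154 normalized counts in WT siGLO. It had 6206, 5881 and 5824 in Pds5a-KO and 7257, 6506 and 5989 in Pds5b-KO siGLO, all below WT siGLO, with log2 fold changes of -0.84 and -0.70 (standard error 0.08 each, edgeR adjusted p = 2.73e-08 and 4.06e-07). Nr0b1, also called Dax1, lacks the usual receptor DNA-binding domain and acts largely as a corepressor. It had 2332, 1878 and 2008 in WT siGLO, 1998, 1689 and 1414 in Pds5a-KO and 1509, 1319 and 1572 in Pds5b-KO siGLO. The Pds5a-KO libraries overlapped with WT siGLO and the Pds5b-KO libraries did not, and the log2 fold changes were -0.29 (standard error 0.14, edgeR adjusted p = 0.153) and -0.50 (standard error 0.15, edgeR adjusted p = 0.0136). Neither was called, but in Pds5b-KO Nr0b1 was called by DESeq2 (adjusted p = 0.00505) and by edgeR with only the groups compared (adjusted p = 0.000933), with library size as the sole scaling (adjusted p = 0.00905) or without the replicate 1 libraries (-0.43, adjusted p = 0.0088).

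Tfcp2l1, a CP2-family factor downstream of STAT3, and Tbx3, a T-box factor that links PI3K signalling to Nanog, showed some of the larger decreases. Tfcp2l1 went from 6324, 7564 and 7210.0 to 3071, 3009.7 and 4236 in Pds5a-KO and to 3461, 3414 and 2832 in Pds5b-KO siGLO (log2 fold changes -1.03 and -1.12, standard error 0.18 each, edgeR adjusted p = 0.000363 and 0.000181). Tbx3 went from 1826, 1784 and 1610.0 to 512.9, 679.0 and 757.6 in Pds5a-KO and to 598.5, 401.8 and 402.8 in Pds5b-KO siGLO. Tbx3 was the most reduced of the 10 in both knockouts, at 37.3% and 26.9% of its WT siGLO mean (log2 fold changes -1.42 and -1.90, standard error 0.16 each, edgeR adjusted p = 1.51e-06 and 4.53e-08).

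Zfp42 and Prdm14, the markers with the highest and the lowest level per kb, were also called. Prdm14, a PR domain protein that represses Dnmt3b and FGF receptor genes, had 624.7, 607.2 and 544.1 normalized counts in WT siGLO, 289.5, 312.4 and 336.4 in Pds5a-KO and 316.7, 325.0 and 319.3 in Pds5b-KO siGLO. The knockout libraries all lay below those of WT siGLO, at 52.8% and 54.1% of its mean, with log2 fold changes of -0.92 and -0.89 (standard error 0.16 each, edgeR adjusted p = 0.000111 and 0.000173). Zfp42 had 10854, 8729 and 9431 in WT siGLO, 8364, 7255 and 6619.7 in Pds5a-KO and 5835, 5602 and 5696 in Pds5b-KO siGLO. The libraries did not overlap, and the log2 fold changes were -0.38 and -0.76 (standard error 0.10 each, edgeR adjusted p = 0.00417 and 3.23e-06). The call of Zfp42 in Pds5a-KO was lost without Pds5a-KO siGLO replicate 2 (edgeR adjusted p = 0.022) or 3 (0.0332) or WT siGLO replicate 1 (0.0412) or 3 (0.0115), with log2 fold changes between -0.41 and -0.29, and in the fit of only the groups compared (-0.39, edgeR adjusted p = 0.0169).

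**Figure D2:**
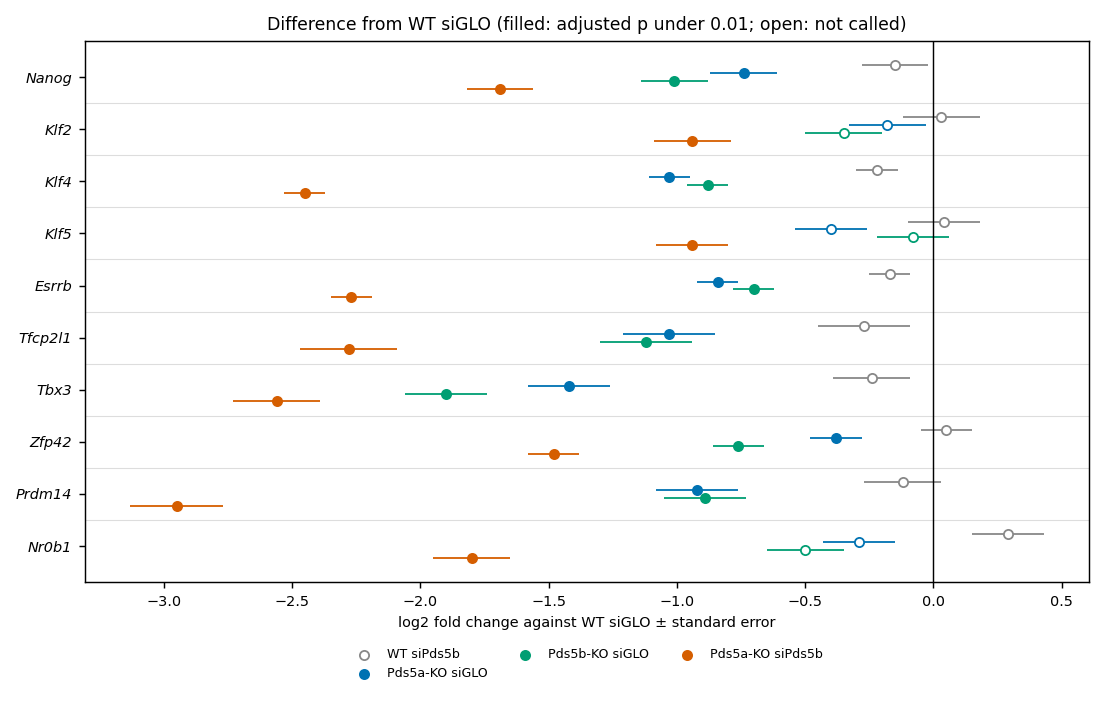
Log2 fold change against WT siGLO (x axis) with its standard error for each of the 10 genes (y axis) in WT siPds5b, Pds5a-KO siGLO, Pds5b-KO siGLO and Pds5a-KO siPds5b. Filled points passed an edgeR adjusted p of 0.01 and open points did not; the Pds5a-KO siPds5b points lie farthest to the left for every gene, from -0.94 to -2.95.

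When the knockouts were compared directly, 1 of the 10 differed. Zfp42 was higher in Pds5a-KO than in Pds5b-KO siGLO (log2 fold change 0.38, standard error 0.10, edgeR adjusted p = 0.0048), in a comparison in which 9.74% of all genes were called higher. The other 9 had log2 differences between -0.32 for Klf5 and 0.48 for Tbx3 and were not called, which does not show that they were equal. Zfp42 and Klf2 lie on chromosome 8, and the other 776 tested genes of that chromosome had a median log2 fold change of -0.19 in Pds5a-KO and 0.30 in Pds5b-KO siGLO against WT siGLO, and of -0.48 between the knockouts, where genes of other chromosomes had a median of 0.05. Within chromosome 8, Zfp42 stood above 95.9% and Klf2 above 93.3% of the genes in the comparison of the knockouts. Against WT siGLO, Zfp42 stood above 25.5% of them in Pds5a-KO and 2.58% in Pds5b-KO siGLO. Klf2 stood above 51.4% and 5.03%. With libraries scaled from genes outside chromosome 8, the difference in Zfp42 was no longer called (0.33, edgeR adjusted p = 0.0118). It was lost as well in the fit of only the groups compared (0.36, edgeR adjusted p = 0.0129), without the replicate 1 libraries (0.29, edgeR adjusted p = 0.0114), and without Pds5a-KO siGLO replicate 1 (log2 fold change 0.26, edgeR adjusted p = 0.0528) or 2 (0.38, 0.0188), or Pds5b-KO siGLO replicate 1 (0.38, 0.0203), 2 (0.35, 0.0264) or 3 (0.35, 0.0229). Tbx3 was instead called higher in Pds5a-KO without Pds5a-KO siGLO replicate 1 (0.60, edgeR adjusted p = 0.00784) or Pds5b-KO siGLO replicate 1 (0.67, edgeR adjusted p = 0.0038), and without the replicate 1 libraries of all conditions its difference was 0.83 (edgeR adjusted p = 1.96e-05). The part of chromosome 8 in these values was not tested further. For the other 8 factors the median of the chromosome lay between -0.04 and 0.03 in either knockout against WT siGLO.

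In the Pds5a-KO clone with siPds5b the whole set was lower than in WT cells. In Pds5a-KO siPds5b all 10 factors were called lower than in WT siGLO and no library overlapped for any of them, while 14.6% of all genes were called lower and 26.7% had all 3 libraries below. The median log2 fold change of the 10 was -2.04, against 0.0 over all genes, and they ranged from -0.94 for Klf2 and Klf5 to -2.95 for Prdm14. Without the 7 replicate 1 libraries all 10 were still called, and the same held without any 1 of the other libraries compared.

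Prdm14 kept the smallest share, with 62.15, 82.93 and 85.71 normalized counts, 13.0% of its WT siGLO mean (standard error 0.18, edgeR adjusted p = 8.49e-12). Tbx3 had 248.6, 319.3 and 316.9, or 16.9%, and Klf4 had 572.7, 657.2 and 616.9, or 18.3%, with log2 fold changes of -2.56 (standard error 0.17, edgeR adjusted p = 3.08e-10) and -2.45 (standard error 0.08, edgeR adjusted p = 7.61e-17). Esrrb fell to 2245, 2104 and 2282 (-2.27, standard error 0.08, edgeR adjusted p = 2.57e-16) and Tfcp2l1 to 1143, 1517 and 1681 (-2.28, standard error 0.19, edgeR adjusted p = 4.49e-08). These 5 genes kept between 13.0% and 20.7% of their WT siGLO means. The next were Nr0b1 with 626.0, 629.2 and 531.2 (-1.80, standard error 0.15), Nanog with 2602, 3594 and 3515 (-1.69, standard error 0.13) and Zfp42 with 3643, 3462 and 3275 (-1.48, standard error 0.10), at 28.7%, 31.0% and 35.8% of WT siGLO. Klf2, with 647.3, 776.4 and 1048, and Klf5, with 953.6, 976.5 and 783.4, kept the largest shares, 52.0% and 52.3% (-0.94 each, edgeR adjusted p = 5.62e-05 and 2.82e-05).

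To separate the siRNA from the knockout, Pds5a-KO siPds5b was compared with Pds5a-KO siGLO. Here 9 of the 10 were called lower, where 3.59% of all genes were, with a median log2 fold change of -1.20. All 10 had every siPds5b library below every siGLO library, as did 15.4% of all genes. Prdm14 fell by 2.03 on the log2 scale (standard error 0.18, edgeR adjusted p = 6.01e-08), Nr0b1 by 1.51 (standard error 0.15, edgeR adjusted p = 1.49e-06), Esrrb by 1.43 and Klf4 by 1.42 (standard error 0.08 and edgeR adjusted p = 2.1e-11 for both). Tfcp2l1 fell by 1.25, Tbx3 by 1.14, Zfp42 by 1.10, Nanog by 0.96 and Klf2 by 0.76. Klf5 was the exception (-0.54, standard error 0.14, edgeR adjusted p = 0.0153). In the fit blocked on replicate number it was called too (-0.53, edgeR adjusted p = 0.000523), which brought the count to 10. The call of Klf2 was lost without Pds5a-KO siGLO replicate 2 (-0.73, edgeR adjusted p = 0.0106) or Pds5a-KO siPds5b replicate 1 (-0.61, 0.0109) or 2 (-0.72, 0.0126), and without the replicate 1 libraries (-0.67, 0.0112).

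The response to siPds5b depended on the genotype for 5 of the 10 factors. The interaction, the log2 fold change by siPds5b in Pds5a-KO minus that in WT, was called for Prdm14 (-1.91, standard error 0.24, edgeR adjusted p = 4.47e-05), Nr0b1 (-1.80, standard error 0.21, edgeR adjusted p = 5.85e-05), Esrrb (-1.26, standard error 0.11, edgeR adjusted p = 2.75e-07), Klf4 (-1.21, standard error 0.11, edgeR adjusted p = 3.99e-07) and Zfp42 (-1.14, standard error 0.14, edgeR adjusted p = 3.19e-05). Of all genes, 0.896% were called lower in this test. Nr0b1 had 3212, 2129.7 and 2253 normalized counts in WT siPds5b, not below WT siGLO, while in Pds5a-KO it went from 1998, 1689 and 1414 to 626.0, 629.2 and 531.2. The interaction was negative for the other 5 as well, between -0.58 for Klf5 and -0.98 for Tfcp2l1, and not called (edgeR adjusted p from 0.0128 for Nanog to 0.122 for Klf5). In the blocked fit, Nanog (-0.81, edgeR adjusted p = 5.01e-05) and Klf2 (-0.81, edgeR adjusted p = 0.00617) were called too. Tbx3 was called without Pds5a-KO siGLO replicate 1 (-1.04, edgeR adjusted p = 0.0088) and Klf2 without Pds5a-KO siPds5b replicate 3 (-1.0, edgeR adjusted p = 0.00345), and without the replicate 1 libraries the count was 7. Pds5b itself was lowered to a similar level in both genotypes, and its interaction was 0.13 (standard error 0.16, edgeR adjusted p = 0.737).

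**Figure D3:**
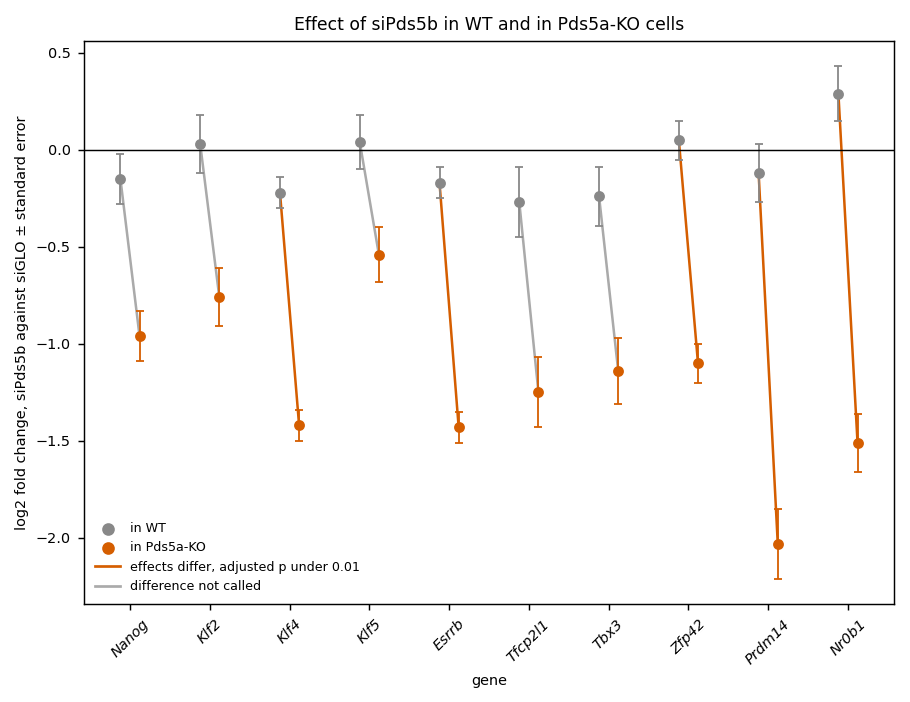
Log2 fold change by siPds5b against siGLO with its standard error (y axis) for each gene (x axis), in WT (grey points) and in Pds5a-KO cells (orange points), joined by an orange line where the difference passed an edgeR adjusted p of 0.01. The WT points lie between -0.27 and 0.29 and the Pds5a-KO points between -0.54 and -2.03, with the widest gap for Prdm14.

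Naive factors were also lower than in WT siGLO in Pds5a-KO cells that received siStag1 or siStag2. Against WT siGLO, 9 of the 10 were called lower in Pds5a-KO siStag1 (9.37% of all genes) and 10 of the 10 in Pds5a-KO siStag2 (13.9% of all genes), with medians of -1.14 and -1.46. All 3 libraries lay below WT siGLO for 10 (22.8% of all genes) and 9 (25.3%) of them. Klf5 with siStag1 was the gene not called (-0.37, standard error 0.14, edgeR adjusted p = 0.0555). These values hold the effect of the knockout too. The call of Nr0b1 with siStag1 was lost without Pds5a-KO siStag1 replicate 3 (-0.59, edgeR adjusted p = 0.0116) or WT siGLO replicate 1 (-0.57, 0.0135), and that of Klf5 with siStag2 (-0.49, edgeR adjusted p = 0.00842) without Pds5a-KO siStag2 replicate 2 (-0.44, 0.0412) or 3 (-0.37, 0.0569) or WT siGLO replicate 1 (-0.45, 0.0384) or 3 (-0.46, 0.0365).

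Against Pds5a-KO siGLO, siStag2 lowered 7 of the 10 (1.27% of all genes, median -0.67), and 9 had all 3 libraries below (12.5% of all genes). Prdm14 had 127.9, 116.9 and 146.1 normalized counts with siStag2 against 289.5, 312.4 and 336.4 (log2 fold change -1.26, standard error 0.17, edgeR adjusted p = 0.000133). Tbx3 had 273.3, 276.3 and 313.7 against 512.9, 679.0 and 757.6 (-1.18, standard error 0.17, edgeR adjusted p = 0.000391), and Nr0b1 had 733.0, 882.8 and 748.0 against 1998, 1689 and 1414 (-1.11, standard error 0.15, edgeR adjusted p = 0.00026). None of these libraries overlapped. Zfp42 fell by 0.85, Esrrb by 0.72, Nanog by 0.58 and Klf4 by 0.50 on the log2 scale. Nanog was near the threshold (edgeR adjusted p = 0.00926), and its call was lost without any 1 of the 6 libraries compared (edgeR adjusted p between 0.0115 and 0.0701, log2 fold changes between -0.66 and -0.52). Tfcp2l1 (-0.62, edgeR adjusted p = 0.0429) and Klf2 (-0.54, edgeR adjusted p = 0.0361) were not called although their libraries did not overlap, and with the replicate block Klf2 was (-0.53, edgeR adjusted p = 0.00706). Klf5 had 1536, 1136 and 1013 against 1528, 1159.7 and 1247, with a log2 fold change of -0.09.

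With siStag1, Esrrb was the 1 factor called against Pds5a-KO siGLO, in a comparison in which 0.0802% of all genes were called lower. Esrrb had 3730.3, 4201 and 4718 normalized counts against 6206, 5881 and 5824 (log2 fold change -0.50, standard error 0.08, edgeR adjusted p = 0.00226). Its call was lost without Pds5a-KO siGLO replicate 1 (-0.47, edgeR adjusted p = 0.0122) or 2 (-0.51, 0.0161) or Pds5a-KO siStag1 replicate 1 (-0.42, 0.0338) or 2 (-0.50, 0.0252). Of the 10, 8 had all 3 siStag1 libraries below Pds5a-KO siGLO, as did 7.55% of all genes, and the median was -0.47. Tbx3 (-0.94, edgeR adjusted p = 0.0133), Prdm14 (-0.87, edgeR adjusted p = 0.017) and Tfcp2l1 (-0.80, edgeR adjusted p = 0.0718) had larger log2 fold changes than Esrrb with wider errors. Klf4 had 1468, 1667 and 1582 against 1707, 1626 and 1622 and Klf5 had 1444, 1360.1 and 1225 against 1528, 1159.7 and 1247, and both overlapped. With the replicate block 3 were called, Esrrb together with Nanog (-0.46, edgeR adjusted p = 0.0032) and Prdm14 (-0.88, edgeR adjusted p = 0.00291). Without Pds5a-KO siStag1 replicate 3, Klf2 (-0.86, edgeR adjusted p = 0.00332) and Prdm14 (-1.16, edgeR adjusted p = 0.000589) were called, as was Tbx3 without Pds5a-KO siGLO replicate 1 (-1.08, edgeR adjusted p = 0.00461) or without the replicate 1 libraries (-0.97, edgeR adjusted p = 8.73e-05).

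**Figure D4:**
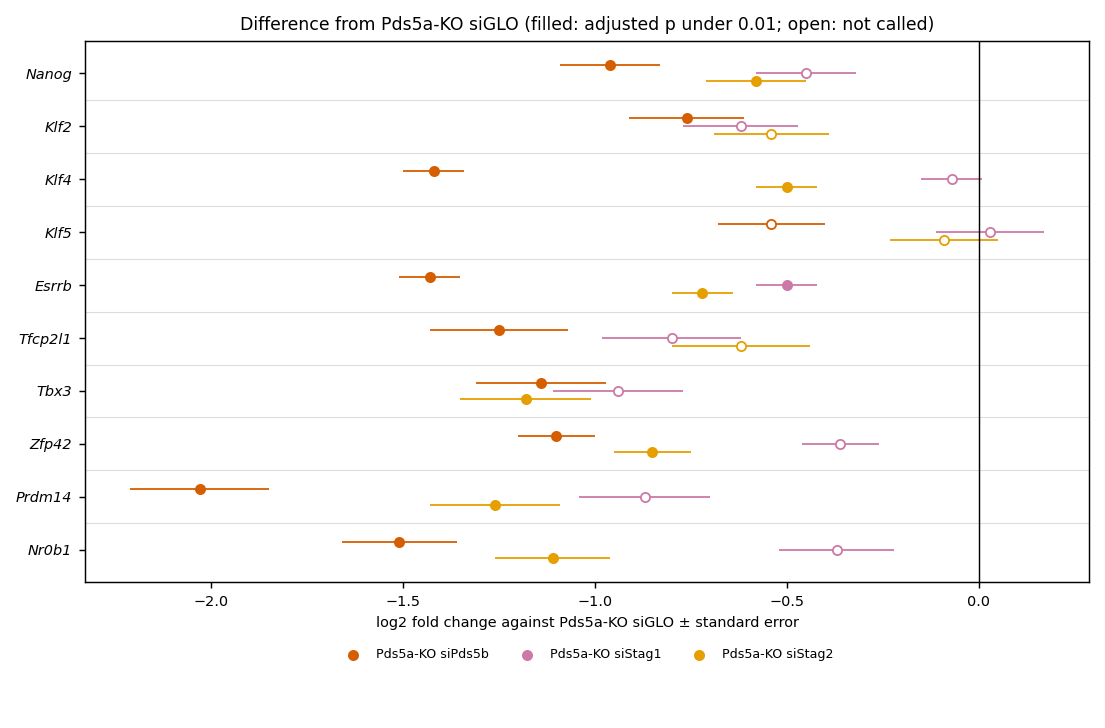
Log2 fold change against Pds5a-KO siGLO (x axis) with its standard error for each gene (y axis) after siPds5b, siStag1 or siStag2 in Pds5a-KO cells, filled where the edgeR adjusted p was under 0.01. For siPds5b 9 points are filled, for siStag2 7 and for siStag1 1, and Klf5 is open in all of them.

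The siRNAs were then compared with each other within Pds5a-KO cells. Klf4 had 572.7, 657.2 and 616.9 normalized counts with siPds5b, 1228, 1099 and 1167 with siStag2 and 1468, 1667 and 1582 with siStag1, with no overlap between the siRNAs. Klf4 was lower with siStag2 than with siStag1 (log2 fold change -0.43, standard error 0.08, edgeR adjusted p = 0.00613), the 1 factor of the 10 called in a comparison where 0.227% of all genes were called lower and 11% had all 3 libraries below, and this call was lost without any 1 of the 6 libraries (edgeR adjusted p between 0.0115 and 0.0389, log2 fold changes between -0.48 and -0.39) and in the fit of only the groups compared (-0.44, edgeR adjusted p = 0.0132). Zfp42 (-0.48, edgeR adjusted p = 0.0111) and Nr0b1 (-0.74, edgeR adjusted p = 0.0161) had no overlap between siStag2 and siStag1 but were not called, and both were without the replicate 1 libraries (-0.44, edgeR adjusted p = 0.00491, and -0.65, edgeR adjusted p = 0.00458), by DESeq2 (adjusted p = 0.000612 and 0.000182) and in the fit of only the groups compared (edgeR adjusted p = 0.00761 and 0.002). Between siPds5b and siStag2, Klf4 (-0.92, standard error 0.08, edgeR adjusted p = 1.3e-07) and Esrrb (-0.71, standard error 0.08, edgeR adjusted p = 2.34e-06) were lower with siPds5b, 2 of the 10 where 1.92% of all genes were called lower, and 8 of the 10 had all 3 libraries below (13.4% of all genes). Tbx3 had nearly the same values with both (log2 difference 0.03, standard error 0.18). The siRNAs left unequal shares of their target transcripts, since Pds5b kept 40.7%, Stag1 23.3% and Stag2 25.9% of the WT siGLO mean. These are RNA levels. By western blot, the study reported a deeper loss of PDS5B protein in Pds5a-KO siPds5b, relative to Pds5a-KO siGLO.

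Genes next to the factors were counted as well. Within 500 kb of Nanog lie 11 tested genes, among them Dppa3, Gdf3 and Slc2a3. In Pds5a-KO siPds5b against WT siGLO none of these 11 was called lower and 4 were called higher, with a median log2 fold change of 0.40 beside -1.69 for Nanog. Over all genes 14.6% were called lower and 17.4% higher in this comparison, to which all counts of neighbours here belong. Klf4 has 2 tested neighbours with a median of -0.15 and none called, and Esrrb has 10 with a median of 0.01, of which 2 were called lower and 1 higher. Neighbours of Tfcp2l1 were called lower in 3 of 4 cases (median -0.35) and those of Nr0b1 in 2 of 2 (median -0.96). Zfp42 has 2 with 1 called lower, Prdm14 has 5 with 2 called lower and 1 higher, and Klf5 has 4 with 1 called higher. Tbx3 has 2, of which 1 was called lower (median -1.73), and the annotated span of Tbx3 is overlapped by an antisense transcript, so without knowledge of strand its reads may include some of that transcript. Klf2 lies among 19 tested genes, of which 7 were called lower and 1 higher with a median of -0.20, close to the median of chromosome 8 in this comparison (-0.23).

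Other genes of the network are described by lists chosen with earlier results of these data known. Of 13 further naive genes, 5 were called lower and 2 higher in Pds5a-KO siGLO, 9 and 1 in Pds5b-KO siGLO, 6 and 1 in Pds5a-KO siPds5b, 6 and 1 in Pds5a-KO siStag1 and 9 and 1 in Pds5a-KO siStag2, each against WT siGLO. Over all genes 8.12% were called lower and 9.63% higher in the first of these comparisons, 8.57% and 9.64% in the second, 14.6% and 17.4% in Pds5a-KO siPds5b, 9.37% and 10.6% in Pds5a-KO siStag1 and 13.9% and 16.2% in Pds5a-KO siStag2. In Pds5a-KO siPds5b the largest decreases were in Tcl1 (log2 fold change -2.34), a coactivator of AKT, Tdh (-2.28), the threonine dehydrogenase on which mESC metabolism depends, Nr5a2 (-2.03), a nuclear receptor that binds upstream of Pou5f1, and Jam2 (-1.96). Dppa3, a maternal factor that protects DNA methylation in the zygote and a neighbour of Nanog, went the other way in every one of these comparisons. It had 155.5, 219.7 and 156.3 normalized counts in WT siGLO and 887.8, 1343 and 986.0 in Pds5a-KO siGLO (log2 fold change 2.61, standard error 0.24, edgeR adjusted p = 4.35e-07).

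The count for the inputs to the network was near that over all genes. Of 11 genes of the LIF, WNT and BMP pathways, 1 was called lower and 2 higher in Pds5a-KO siPds5b against WT siGLO, where 14.6% and 17.4% of all genes were, with a median of 0.03. Stat3 had 1873, 1839.9 and 1947 normalized counts there and 1812, 1922 and 1918 in WT siGLO, and the LIF receptor subunits Lifr and Il6st were not called. The 2 called higher were Id1 (1.58) and Id3 (1.18), targets of BMP signalling. Of 12 genes that promote exit from the naive state 1 was called in each direction, Zfp281 lower (-0.36) and Mbd3 higher (0.41). Tcf7l1, the repressor of Esrrb and Nanog, was higher in Pds5a-KO siGLO (0.52), siStag1 (0.59) and siStag2 (0.79) cells and was not called in Pds5a-KO siPds5b.

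General pluripotency genes were mixed. Of 8, 2 were called lower and 1 higher in Pds5a-KO siPds5b, Sox2 (-0.79, standard error 0.07, edgeR adjusted p = 5.69e-09), Pou5f1 (-0.57, standard error 0.08, edgeR adjusted p = 5.06e-06) and Lin28a (0.40), and the list had a median of 0.08. Neither Sox2 nor Pou5f1 was called by edgeR in either knockout with siGLO. The study, with DESeq2 at the same threshold, reported a significant decrease of Pou5f1 in both knockouts. Of 12 formative and primed genes, 6 were called higher, where 17.4% of all genes were, among them the DNA methyltransferases Dnmt3a (1.68) and Dnmt3b (1.08), the WNT effector Lef1 (1.28) and the POU factor Pou3f1 (1.25), and 1 was called lower. The latter was Fgf5, the usual marker of primed cells, with 103.9, 64.27 and 58.80 normalized counts in Pds5a-KO siPds5b against 127.2, 263.6 and 315.9 in WT siGLO (-1.63, standard error 0.38, edgeR adjusted p = 0.00195). Fgf5 was called lower in all 5 conditions on a knockout background.

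**Figure D5:**
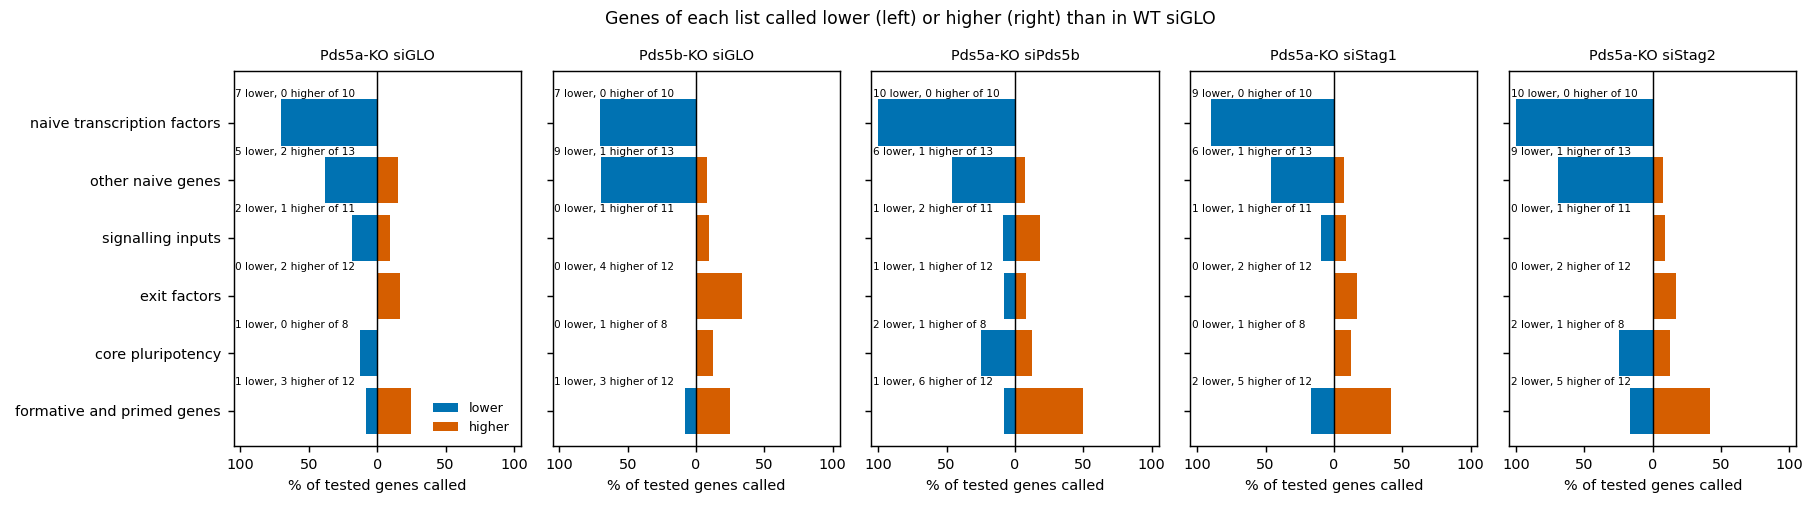
Share of the tested genes of each list (y axis) that were called lower (blue, to the left) or higher (orange, to the right) than in WT siGLO, in percent (x axis), with the counts written above each pair of bars, for the 5 conditions on a knockout background. The 10 naive transcription factors have 7, 7, 10, 9 and 10 called lower and 0 called higher. The list of formative and primed genes has 3, 3, 6, 5 and 5 called higher and 1, 1, 1, 2 and 2 called lower. Over all genes 9.63%, 9.64%, 17.4%, 10.6% and 16.2% were called higher. The shares called lower were 8.12%, 8.57%, 14.6%, 9.37% and 13.9%.

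Markers of other cell types were measured beside these values, and their part in them was not tested. None of 6 primitive endoderm markers was called in any of the 5 comparisons with WT siGLO on a knockout background, and their summed level was 1406, 824.6 and 839.3 in WT siGLO and 1715, 1028 and 949.8 in Pds5a-KO siPds5b. Over all genes 14.6% were called lower and 17.4% higher in Pds5a-KO siPds5b against WT siGLO. Of 5 trophoblast markers 3 were tested and all 3 were called higher there (log2 fold changes 3.22 for Hand1, 2.28 for Cdx2 and 1.69 for Gata3), with a sum of 352.5, 438.5 and 427.6 normalized counts against 56.71, 55.2 and 87.65 in WT siGLO. All 3 were also called higher in Pds5a-KO siGLO (9.63% of all genes), with a sum of 354.5, 477.9 and 548.4. Between Pds5a-KO siPds5b and Pds5a-KO siGLO they were not called. Tpbpa, the marker of spongiotrophoblast, was at 0 in every condition. The sum of 7 fibroblast markers was 442.2, 1017 and 1305 in Pds5a-KO siPds5b and 1068, 1123 and 1493 in WT siGLO, and that of 5 mesoderm markers was 315.2, 356.6 and 322.9 against 464.0, 1009 and 1206, with 1 marker of each called lower. The sum of 6 neuroectoderm markers was 1678, 1916 and 1711 against 3254, 3582 and 3855, and the list was mixed, with 3 called lower (Sox1, Nes and Tubb3), 1 called higher and a median log2 fold change of -0.08. The marker called higher was Neurog2, with 29.3, 15.55 and 19.93 normalized counts in Pds5a-KO siPds5b against 0.8593, 0.0 and 0.0 in WT siGLO. The neuroectoderm sum was 2096, 2479 and 2147 in Pds5a-KO siGLO, with 2 markers called lower (8.12% of all genes). It was 3727, 3503 and 3412 in Pds5b-KO siGLO, with 3 called higher (9.64% of all genes). The 4 genes of the 2-cell-like state, Zscan4c, Zscan4d, Tcstv1 and Tcstv3, summed to 933.8 to 1353 in WT siGLO, 109.9 to 184.9 in Pds5a-KO siGLO and 684.7 to 1293 in Pds5a-KO siPds5b.

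The courses of the factors over the 7 conditions were compared with a measure that holds the size of the changes as well as their shape. Likeness was measured as the root mean square difference of the condition means in log2 CPM, a count scaled to library size, after centring each gene, so that a smaller value means a closer course. Among the 10, Nanog and Zfp42 were closest (0.142), followed by Klf4 and Esrrb (0.146) and by Esrrb and Tfcp2l1 (0.181). Klf5 and Tbx3 were farthest apart (0.78). The search was then widened to 9763 genes of moderate or high level, with the 10 factors themselves left out as candidates. Among these other genes, the closest to Esrrb was Nr5a2 (0.113), and Nr5a2 was also the closest to Klf4 (0.194). The gene outside the 10 that was closest to Tfcp2l1 was Kit (0.103), to Nanog Ddc (0.103), to Zfp42 Gjb5 (0.108), to Klf2 Kank4 (0.091), to Klf5 Itpk1 (0.069), to Prdm14 Gm7325 (0.206), to Nr0b1 Jam2 (0.211) and to Tbx3 H2-M5 (0.229). These values rest on 7 condition means from the same libraries and are given as a description.

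The libraries that share a replicate number leaned the same way within several conditions. Nanog was lowest in replicate 1 in 6 of the 7 conditions, and Zfp42 and Klf5 were highest in replicate 1 in 6 of the 7. Klf2 was highest in replicate 3 in 6 of the 7. Without the replicate 1 libraries, 8 calls were gained and 2 were lost over the 130 pairs of factor and comparison. No called difference changed its sign there. Such a fit could hardly turn the sign of a called difference, so it does not measure what the replicate number adds to the sizes.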

How the data were processed

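Deposited gene counts of 21 libraries were used, 1 file per library, each with a gene symbol and a whole-number read count. Per the labels, the authors aligned reads with STAR to mm10 and used DESeq2, and the counting tool, its gene models and its strand setting are not given in the sources used here. No per-sample column was left out. Samples were grouped by the labels into 7 conditions. Genes were filtered with filterByExpr and scaled by TMM, and 1 model with a mean per condition was fitted to all libraries by edgeR 4.0.16 (quasi-likelihood, robust) in R 4.3.3, with Benjamini-Hochberg adjustment over 14963 genes. Genes were called at an adjusted p under 0.01. The standard error is the log2 fold change divided by the square root of F. Normalized counts are counts scaled to the mean effective library size of 19816922. Total counts were 17311090 to 23989198 with a median of 19628146, and the precision of low genes such as Prdm14 is limited by their counts. The 10 members and the gene lists were chosen with earlier results of these data known, so their counts are descriptions. Members and targets are named in every comparison, and from each list the called genes, up to 4 in each direction by size. Stat3, Lifr and Il6st in the dual depletion were named after their values were seen.

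Replicate numbers paired libraries in 4 comparisons, since every same-numbered pair had deviations that correlated by more than 0.1. The lowest correlations were 0.383 for siPds5b in WT, 0.411 for siPds5b, 0.188 for siStag1 and 0.114 for siStag2 in Pds5a-KO. The labels say nothing of what a number shares. Promoter windows are from RefSeq on GRCm38.p6. DESeq2 1.42.0 and other scalings, filters, thresholds and sample sets were tried as alternatives. Figures were drawn with matplotlib 3.10.9. The fitting was tested on simulated data.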

Additional observations from a re-analysis of the deposited data

Results flagged for a closer look

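For 5 of the 10 factors the log2 fold change by siPds5b differed between Pds5a-KO and WT cells in edgeR's test of the difference itself. The difference, Pds5a-KO minus WT, was -1.21 for Klf4, -1.26 for Esrrb, -1.14 for Zfp42, -1.91 for Prdm14 and -1.80 for Nr0b1. No group held enough libraries to look for single outlying ones, since each had 3.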

How the results depend on the processing

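Over 130 pairs of factor and comparison, 2270 alternative values were computed. Of these 2124 kept their side of the threshold, 73 lost the call and 73 gained it. No called value changed sign, but 17 uncalled values in 9 pairs did, all with a log2 fold change of at most 0.18 in size as reported, such as Klf2 between siStag2 and siStag1 (-0.07 to 0.33) and Zfp42 in WT siPds5b (-0.07 to 0.14). Counts of called factors that moved by over 1.5 times are given first. With a minimum size of 1 on the log2 scale also required, 3 were called in each single knockout, 3 for siStag2 in Pds5a-KO, and 0 for siStag1 in Pds5a-KO, between the knockouts, between siStag2 and siStag1 and between siPds5b and siStag2. At an adjusted p under 0.05 the counts were 3 for siStag1, 2 between the knockouts, 3 between siStag2 and siStag1, 4 between siPds5b and siStag2 and 9 for the interaction. DESeq2 gave 5 for siStag1, 3 between siStag2 and siStag1, 4 between siPds5b and siStag2 and 9 for the interaction, and by smaller moves 9 for siStag2 and 10 for siPds5b in Pds5a-KO and 8 in Pds5b-KO. Without the filter on low counts there were 2 for siStag1 and 2 between siStag2 and siStag1. With only the groups compared there were 0 for siStag1, 0 between the knockouts and 2 between siStag2 and siStag1, and scaling from genes outside chromosome 8 left 0 between the knockouts. The fit of only the groups compared also ended the calls of Klf2 for siPds5b in Pds5a-KO (edgeR adjusted p = 0.0196), Klf2 with siStag1 (0.011) and Klf5 with siStag2 (0.0136) against WT siGLO and Esrrb for siStag1 in Pds5a-KO (0.0519). Without the filter Klf5 with siStag2 against WT siGLO (0.0178) and Nanog for siStag2 in Pds5a-KO (0.0106) were lost, the latter also with library size only (0.0158).

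With the replicate block, 3 were called for siStag1, 2 between the knockouts, 3 between siStag2 and siStag1 and 5 between siPds5b and siStag2. In comparisons whose numbers did not pair the libraries, the block added Klf5 in Pds5a-KO (-0.41, edgeR adjusted p = 0.00245), Nr0b1 in Pds5b-KO (-0.49, 0.00274), Klf5 with siStag1 against WT siGLO (-0.37, 0.00524) and Nanog between the knockouts (0.28, 0.00793). It changed no other call than those given here and beside the results, together with Zfp42 (-0.48) and Nr0b1 (-0.73) between siStag2 and siStag1 and Nanog (-0.38), Klf5 (-0.43) and Prdm14 (-0.77) between siPds5b and siStag2.

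Leaving out 1 library at a time gave 6 to 7 called in Pds5a-KO, 7 to 7 in Pds5b-KO and 0 to 1 between the knockouts. It gave 0 to 0 in WT siPds5b, 10 to 10 in Pds5a-KO siPds5b and 5 to 6 for the interaction. Against WT siGLO there were 8 to 9 for siStag1 and 9 to 10 for siStag2. Against Pds5a-KO siGLO there were 8 to 9 for siPds5b, 0 to 3 for siStag1 and 6 to 6 for siStag2. Between siStag2 and siStag1 the range was 0 to 0, and between siPds5b and siStag2 it was 2 to 2. The fit without the replicate 1 libraries was chosen after seeing the data and gave 2 for siStag1 and 3 between siStag2 and siStag1. It also gave 8 in each single knockout, 7 for siStag2 in Pds5a-KO and 7 for the interaction. The cause of these changes was not tested. With 3 libraries per condition, a factor that was not called is not shown to be unchanged.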
